A study of Mus musculus with 17 samples.

Results

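Among nuclei of the adult mouse neocortex, 393 were taken as layer 5/6 (L5/6) excitatory nuclei by a set of 5 markers that includes Il1rapl2 and Deptor, out of 31486 nuclei that passed the quality filters in 8 mice. Not every member held both genes: 361 had an Il1rapl2 UMI and 210 (53.4%) a Deptor UMI. They were chosen by the unique molecular identifiers (UMIs, 1 per captured transcript) that each nucleus held for a few genes. A member had at least 1 UMI of 3 or more of the 5 genes Il1rapl2, Deptor, Etv1, Sulf2 and Scube1, no UMI of Gad1 or Gad2, no UMI of Rprm, Syt6 or Galnt14, and at most 1 UMI of Rorb. All nuclei considered had 600 to 5000 detected genes and under 5% of UMIs from mitochondrial genes. The levels of these genes inside the members are therefore set by the choice and are given as a description.

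The mice were males, C57BL/6 by the labels and C57Bl/6J in the study's methods. Chronic unpredictable stress (CUS) consisted of 3 stressors a day for 12 days, beginning at 9 to 10 weeks of age, and nuclei for droplet sequencing (sNucDrop-seq) were collected 24 hours after the last stressor, at postnatal day 80. Unstressed mice, which were also handled, served as controls. There were 4 control and 4 CUS mice, which gave 25 to 66 members each and 109193 to 263847 member UMIs per mouse. Nuclear RNA of the medial prefrontal cortex (mPFC) had been sequenced in bulk from 4 control and 5 CUS mice at postnatal day 90, a day after the last of a series of behavioural tests, with 26188825 to 30525015 counted reads per mouse, and served here for measures that did not enter the choice of nuclei. The groups differed in the exposure to stress, and the labels name no transgene or drug. The labels list each mouse as its own sample but do not say which mice were processed together.

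Deep-layer excitatory neurons fall into several projection classes. Intratelencephalic neurons project to other cortical areas and the striatum, pyramidal-tract neurons of layer 5 carry Fezf2 and Bcl11b and project to subcerebral targets, corticothalamic neurons of layer 6 carry Foxp2 and project to the thalamus, and near-projecting neurons carry Tshz2. Il1rapl2 encodes a synaptic adhesion protein related to the interleukin-1 receptor accessory protein. Deptor is an inhibitory partner of the kinase mTOR, Etv1 is an ETS transcription factor of layer 5 neurons, Sulf2 removes sulfate from heparan sulfate chains, and Scube1 is a secreted and membrane-bound EGF-domain protein.

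The choice rested on few transcripts per nucleus. Exactly 3 of the 5 genes were detected in 305 members, 4 in 79 and all 5 in 9. Just outside the threshold, 1153 nuclei passed every other condition with 2 of the genes. Of the 1070 nuclei with 3 or more of the genes, 227 held a Gad1 or Gad2 UMI, 334 a UMI of Rprm, Syt6 or Galnt14, and 341 at least 2 UMIs of Rorb, with some nuclei failing more than 1 condition. Members had a median of 3547 UMIs and 1947 genes, against 2080 UMIs and 1309 genes in the other 31093 filtered nuclei. The L2/3, L4, L5 PT and L6 comparison nuclei described below had medians of 3542.5, 3534, 4421 and 2619 UMIs. When every nucleus was thinned to 1000 UMIs and the same rule was applied, 99 nuclei qualified, of which 61 were members. The 37 barcodes that 2 mice shared, summed over 28 pairs of mice, held no member barcode in common between mice.

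Il1rapl2 carried most of the choice. It was detected in 91.9% of members with 1738 UMIs in all and up to 28 in 1 nucleus, whereas Scube1 was detected in 66.2%, Etv1 in 59.3%, Sulf2 in 53.9% and Deptor in 53.4%. The commonest combination was Il1rapl2 with Etv1 and Scube1, in 62 members, followed by Il1rapl2 with Deptor and Scube1 in 54 and Il1rapl2 with Sulf2 and Scube1 in 48. Only 32 members lacked Il1rapl2. Il1rapl2 lies at chrX:137570608-138846946, Deptor at chr15:55112317-55259271, Etv1 at chr12:38779380-38870484, Sulf2 at chr2:166073089-166155663 and Scube1 at chr15:83604999-83725021 (mm10).

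The members carried the excitatory markers that the rule did not use. Slc17a7, the vesicular glutamate transporter of cortical excitatory neurons, had a UMI in 56.2% of members and in 30.6% of the other filtered nuclei. After thinning to 1000 UMIs these shares were 21% and 14.8%. As a background, 2937 nuclei with 4 or more markers of the inhibitory list (median 2529 UMIs) had a Slc17a7 UMI in 9.6% before and 3% after thinning, and 336 nuclei with 4 or more oligodendrocyte markers (median 1420.5 UMIs) in 21.4% and 8.89%. Neurod6, a transcription factor of excitatory neurons, was detected in 45% of members and 7.63% of these inhibitory nuclei, and Sv2b, a synaptic vesicle protein, in 60.8% and 14.2%. In the oligodendrocyte nuclei the shares were 15.5% for Neurod6 and 25.3% for Sv2b. After thinning, Neurod6 was found in 17.1% of members, 2.82% of inhibitory and 7.41% of oligodendrocyte nuclei, and Sv2b in 24%, 5.54% and 15.2%. In all, 80.9% of members had 3 or more of 8 pan-excitatory markers, against 47% of the other nuclei. These shares were not matched for depth (medians of 3547 and 2080 UMIs), and the part of the Gad1 and Gad2 exclusion was not tested. Scaled to a common library total (CPM) and pooled over mice, the 8 markers summed to 2209 CPM in members and 1986 CPM in the other nuclei. None of the 8 was detected in 7 members. The excitatory label therefore rests, for the group, on the contrast with the inhibitory and oligodendrocyte nuclei. It was not checked by these markers in each nucleus.

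Markers of the cortical layers were read in the members. Levels here are CPM, UMIs scaled to a common library total, pooled over mice. Il1rapl2 itself was not confined to members, since 132 L4 comparison nuclei stood at 737 CPM and the members at 1111 CPM. The members had 17.3 CPM of Cux2 and 16 CPM of Calb1, which mark layer 2/3, against 207 and 282 CPM in 2298 L2/3 comparison nuclei. All 5 L2/3 markers summed to 239.6 CPM in members and 573 CPM in the other filtered nuclei, and Enpp2 gave 109 CPM of the former. Whrn, a layer 4 marker, stood at 11.5 CPM in members and 224 CPM in the L4 comparison nuclei. The whole list of 5 L4 markers includes Tox and the Rorb that the rule capped. It summed to 513 CPM in members and 421 CPM in the other filtered nuclei. Tox alone gave 444 CPM of the former and 169 CPM of the latter, and 118 members had none of the 5. Fezf2 stood at 46 CPM and Bcl11b at 62 CPM in members, and at 167 and 313 CPM in 422 L5 pyramidal-tract (L5 PT) comparison nuclei. All 5 L5 PT markers summed to 202 CPM in members and 267 CPM in the other filtered nuclei. Foxp2 stood at 27.5 CPM in members and at 516 CPM in 2232 L6 comparison nuclei. Each class was itself chosen by at least 3 markers of its own list and held no member, so these contrasts describe the classes and do not test them. Hs3st4, an L6 sulfotransferase that the rule did not bar, remained at 157 CPM in members and was detected in 31% of them, and Tshz2 was detected in 24.9%. The 5 near-projecting markers, Tshz2 among them, summed to 230 CPM in members and 197 CPM in the other nuclei, with none detected in 248 members. The 6 corticothalamic markers summed to 438 against 642 CPM, with none detected in 166 members. Because the rule barred Rprm and Syt6, which are 2 of the 6, the choice of nuclei fixed part of that sum and of that count. Slc17a8 (near-projecting list), Osr1 and Car3 (layer 6 intratelencephalic list) and Nxph4 (layer 6b list) had no UMI in any of the 393 members. This allows a share of up to 0.763% of nuclei with a UMI (counting error only). All other genes of these lists were detected in members. The layer 6 intratelencephalic list summed to 32.6 CPM in members and 102 CPM in the other nuclei, and the layer 6b list to 18.5 and 49.4 CPM.

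**Figure D1:**
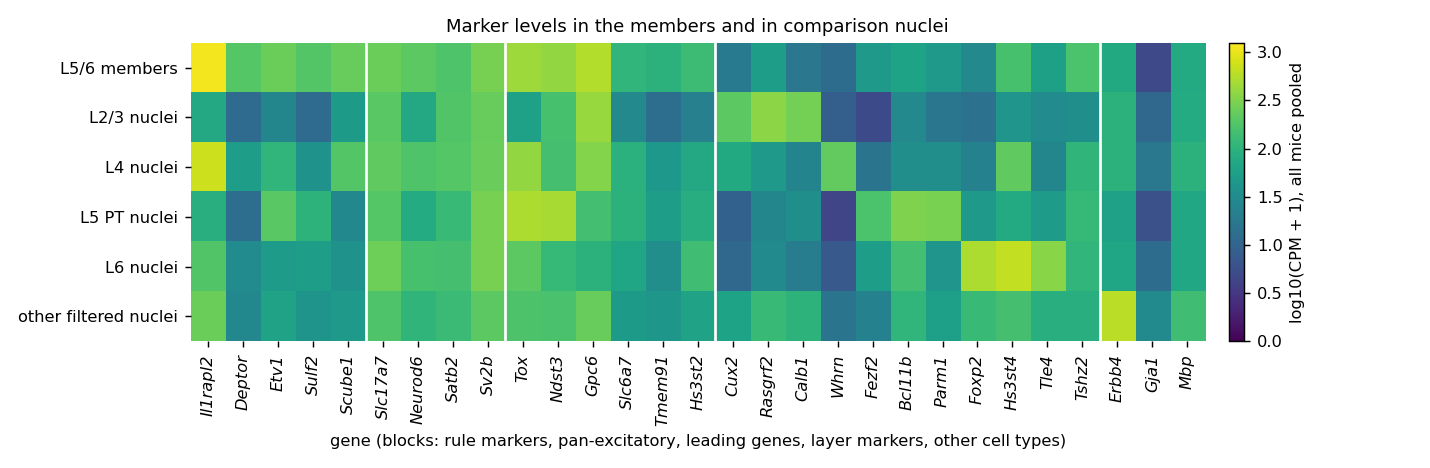
Heat map of log10(CPM + 1), pooled over 8 mice, for rule markers, pan-excitatory markers, leading genes, layer markers and markers of other cells (columns) in the L5/6 members, in 4 comparison classes and in the other filtered nuclei (rows). The members are brightest for Il1rapl2 (1111 CPM) and share Tox with L4 and L5 PT nuclei (444, 398 and 529 CPM), while Cux2, Whrn and Foxp2 are dark in them.

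Of the genes outside the rule found in at least 25% of members, the 8 with the highest ratio of member CPM to that of the other nuclei were Tox, Ndst3, Gpc6, Slc6a7, AC129186.1, Tmem91, Hs3st2 and B3glct, with ratios from 2.63 for Tox to 2.1 for B3glct. Tox, an HMG-box nuclear factor, stood at 444 CPM in members, 398 CPM in L4 nuclei, 529 CPM in L5 PT nuclei, 205 CPM in L6 nuclei and 59 CPM in L2/3 nuclei. Ndst3, which N-sulfates heparan sulfate, stood at 392 CPM in members and 495 CPM in L5 PT nuclei, against 117 to 157 CPM in the L2/3, L4 and L6 nuclei. Gpc6, a glypican that carries heparan sulfate, stood at 546 CPM in members and 422 CPM in L2/3 nuclei and only 96.5 CPM in L6 nuclei. Tmem91, which encodes a small transmembrane protein, stood at 95.9 CPM in members and at most 54.4 CPM in the 4 comparison classes.

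Among the members, detection of Tox and of some layer markers was compared by rule marker. Tox was detected in 65.2% of members with Etv1 and in 55.6% of those without, and Tshz2 in 28.8% and 19.4%. By Scube1 the shares with Tox were 61.9% and 60.2%, and by Il1rapl2 61.2% and 62.5%. The members with Etv1 were also deeper, with a median of 3843 UMIs against 3195. Tshz2 reached 239 CPM in members without Scube1 and 134 CPM in those with it, although the latter were deeper (3679.5 against 2942 UMIs). Tshz2 and Hs3st4 were found together in 44 members where the product of their shares gives 30.4, and Tox and Hs3st4 in 75 where it gives 74.8. Detection of every gene rises with depth, which by itself raises joint detection, and its part in these counts was not tested.

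Markers of other cells were also detected. Summed over 10 inhibitory markers, members held 142 CPM and the other nuclei 1380 CPM, a difference that the exclusion of Gad1 and Gad2 partly sets. The 10 oligodendrocyte markers summed to 443 CPM in members and 989 CPM in the other nuclei, and 18 members had UMIs of 3 or more of them. The 10 striatal markers summed to 622 against 1201 CPM, and 38 members had 3 or more. The 10 astrocyte markers summed to 891 against 1478 CPM, and 60 members (15.3%) had 3 or more, beside 14.7% of the other nuclei. Most astrocyte UMIs in members were of Slc1a2, a glutamate transporter, at 561 CPM, whereas Gja1 and Aqp4 stood at 3.83 and 5.75 CPM. A doublet score above 0.2 was given to 79 members (20.1%) and to 15.2% of all filtered nuclei.

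The first comparison asks whether stress changed how many such nuclei were recovered. Members made up 1.25%, 1.08%, 1.21% and 1.1% of filtered nuclei in the control mice and 1.38%, 1.19%, 1.39% and 1.35% in the CUS mice. The CUS mouse at 1.19% lay within the control range and the other 3 lay above it. The means were 1.16 ± 0.0822% (SD, n = 4) and 1.33 ± 0.0941% (SD, n = 4), which did not pass an exact two-sided permutation test (p = 0.0857, where 0.0286 is the smallest value that 4 against 4 mice can give). The difference of 0.168 percentage points was 0.0848 without nuclei of a high doublet score (exact permutation p = 0.571) and 0.0595 with 4 or more rule markers (exact permutation p = 0.343). Counted among nuclei with a Slc17a7 UMI and no Gad1 or Gad2 UMI, the share was 2.35 ± 0.184% in controls (n = 4) and 2.96 ± 0.249% in CUS mice (n = 4), without overlap, and the exact permutation test gave its smallest value, 0.0286. With the rule applied at 1000 UMIs the 2 groups had 0.329 ± 0.0934% and 0.342 ± 0.157% (SD, n = 4 each, exact permutation p = 1). The levels of Slc17a7 within members, which did not pass the FDR of 0.2, are given below, and their part in the second of these shares was not tested.

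The medians per mouse were 3033 to 4216.5 UMIs in controls and 2888 to 3941.5 in CUS mice (exact permutation p = 0.657), and 1714 to 2281.5 against 1623 to 2140 genes (exact permutation p = 0.886).

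**Figure D2:**
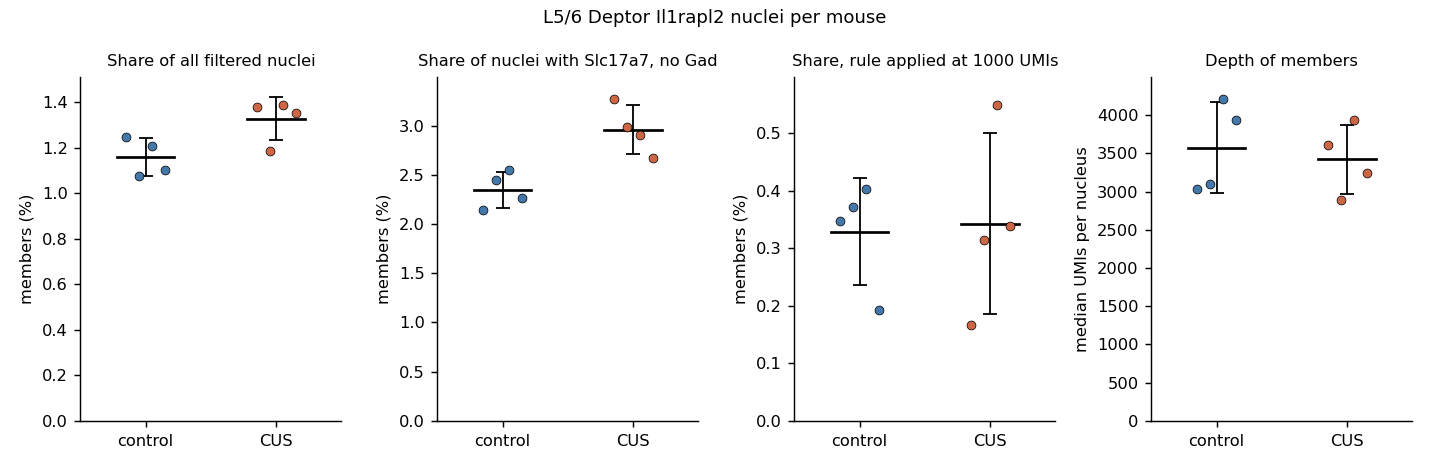
Share of L5/6 nuclei per mouse (%) among all filtered nuclei, among nuclei with a Slc17a7 and no Gad UMI, and after thinning to 1000 UMIs, and median UMIs per member; points are mice, bars are means ± SD (n = 4). The groups separate only for the Slc17a7 denominator (2.14 to 2.55% against 2.67 to 3.27%).

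No gene changed past the false discovery rate (FDR) of 0.2 in L5/6 nuclei after CUS. UMIs of the members were summed per mouse and 6735 genes were tested with edgeR's quasi-likelihood test, which called 0 genes (0%), with a lowest FDR of 0.364. Without adjustment, 361 genes (5.36%) had p under 0.05, 172 lower (2.55%) and 189 higher (2.81%) in CUS mice. DESeq2 called 0 genes, with 139 at p under 0.05 before adjustment. Calls appeared in some alternatives, with 9 genes (7 lower, 2 higher) in edgeR's likelihood ratio test, 11 without CUS mouse 3 and 1 (Dcc) without control mouse 3. The study did call genes at this FDR in its own layer 5/6 cluster. It used another choice of nuclei, the likelihood ratio test and a batch term, so its count and the 0 given here are not directly comparable. The 4 control and 4 CUS values did not overlap for 226 genes (3.36%), 116 lower (1.72%) and 110 higher (1.63%). Levels of single genes below are TMM-scaled CPM of the tested genes. Sums over a list are CPM without TMM scaling and take in every listed gene, tested or not. The genes named next have the smallest p in each direction, and none passed.

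Oligodendrocyte transcripts spanned different, overlapping ranges in the groups. The 10 oligodendrocyte markers summed to 318 to 938 CPM in the control mice and 263 to 403 CPM in the CUS mice. Of these, 2 could be tested and both had an unadjusted p under 0.05 in the lower direction. Mbp, which encodes myelin basic protein, stood (log2 fold change -0.83) at 100 to 124 CPM in control and 42.5 to 74.7 CPM in CUS mice without overlap. The 8 pan-excitatory markers summed to 1865 to 2285 CPM in controls and 2046 to 2459 CPM in CUS mice. Of these 8, only Slc17a7 was under an unadjusted p of 0.05, at 182 to 253 CPM in control and 271 to 343 CPM in CUS mice (log2 fold change 0.48). The 6 corticothalamic markers summed to 304 to 794 CPM in controls and 269 to 470 CPM in CUS mice. Of these 6, 4 could be tested, all with estimates below 0 (median -0.53) and none with an unadjusted p under 0.05. The part of any of these lists in the values below was not tested.

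Mical2 had the highest level of the 6 genes with the smallest p in the higher direction. It encodes an oxidoreductase that acts on nuclear actin and is known to favour transcription through SRF. Its levels were 248, 212, 221 and 266 CPM in the control mice and 430, 448, 326 and 382 CPM in the CUS mice, so the groups did not overlap. The difference was 0.75 on the log2 scale with a standard error of 0.20, and edgeR gave an FDR of 0.401. Mical2 passed the FDR of 0.2 when only the 605 genes with more summed UMIs than nuclei were tested (FDR 0.175), in the likelihood ratio test (0.195), without CUS mouse 3 (0.191) and with nuclei of 2 or more rule markers (0.0288). The estimate stayed between 0.57 and 0.84 over 19 alternatives. In L2/3 nuclei the CUS effect was 0.83, and the difference between the classes was -0.06 (FDR 0.99 for the interaction), so the change in L5/6 nuclei was not shown to differ. In bulk mPFC nuclei of other mice Mical2 (chr7:112225856-112355194, mm10) rose from 457 to 661 CPM, with a log2 fold change of 0.53 (FDR 0.0476 from edgeR, n = 4 and 5), although single mice of the 2 groups overlapped. Leaving out any 1 of 7 of the 9 bulk mice, all but control mouse 3 and CUS mouse 2, raised its FDR above 0.05, up to 0.13.

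Ecd, which encodes a protein of pre-mRNA splicing and the cell cycle, had the smallest p. It was counted with 14 UMIs in the control and 59 UMIs in the CUS members. The levels were 29.1, 21.8, 12 and 30.7 CPM in control mice and 110, 74.7, 47.2 and 71.3 CPM in CUS mice. The difference on the log2 scale was 1.81 ± 0.43 (standard error), at an FDR of 0.364. Pparg, a lipid-sensing nuclear receptor, had 0, 32.6, 32.1 and 20.5 CPM in control mice and 64.1, 74.7, 75.6 and 58.7 CPM in CUS mice, from 16 and 52 UMIs. For both genes the groups did not overlap, and both rested on few UMIs. With nuclei of 2 or more rule markers, the difference was 0.63 for Ecd and -0.08 for Pparg, and with 4 or more it was 2.07 and 0.56.

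Ptprn, a dense-core vesicle protein, had 189, 158, 156 and 184 CPM in control mice and 270, 364, 274 and 239 CPM in CUS mice (log2 fold change 0.72, FDR 0.883). Dbn1, the actin-binding drebrin of dendritic spines, had 38.1 to 44.1 CPM in control mice and 70.9 to 124 CPM in CUS mice. Naa15, a subunit of an N-terminal acetyltransferase, had 71.7 to 141 CPM and 168 to 220 CPM. All 3 were without overlap, and none changed past an FDR of 0.05 in bulk mPFC, where the estimates were 0.19, 0.15 and -0.12. With nuclei of 2 or more rule markers the L5/6 estimates were 0.52 for Ptprn, 0.57 for Dbn1 and 0.32 for Naa15.

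In the lower direction, Arhgap20, a GTPase-activating protein, had the highest level of the 5 named genes without overlap, with 371, 337, 289 and 379 CPM in control mice and 160, 243, 203 and 193 CPM in CUS mice (-0.79 ± 0.21 on the log2 scale, SE, at an FDR of 0.364). Ip6k2, an inositol hexakisphosphate kinase, had 138, 114, 100 and 113 CPM in control mice and 27.5, 56.1, 66.1 and 42 CPM in CUS mice (log2 fold change -1.29). Pcsk5, a proprotein convertase, had 102 to 221 CPM and 64.1 to 94.5 CPM, and Gm20417, a gene known only by its model name, 81.6 to 236 CPM and 47.2 to 79.7 CPM. In bulk mPFC the estimates were -0.05 for Arhgap20, -0.01 for Ip6k2, -0.34 for Pcsk5 and 0.13 for Gm20417, with none past the FDR of 0.05. With nuclei of 2 or more rule markers the L5/6 estimates were -0.41 for Arhgap20, -0.66 for Ip6k2, -0.20 for Pcsk5 and -0.92 for Gm20417, and with 4 or more that of Pcsk5 was -0.16.

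Grin3a, an NMDA receptor subunit, rested on 69 UMIs in 37 members. Its levels were 65.5, 59.9, 48.1 and 195 CPM in control mice and 32, 46.7, 14.2 and 12.6 CPM in CUS mice, and control mouse 4 stood well above the other 3. Without any 1 mouse, control mouse 4 among them, the log2 fold change lay between -2.01 and -1.24, and with all mice it was -1.74. With nuclei of 2 or more rule markers it was -0.50. Dcc, the netrin receptor, had 604, 920, 357 and 768 CPM in control mice and 339, 280, 421 and 382 CPM in CUS mice, which overlapped. A pair of nuclei of control mouse 2 held 63 and 33 of its 700 UMIs, and both had a doublet score above 0.2. Without nuclei above this score, the log2 fold change of Dcc went from -0.86 to 0.16.

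**Figure D3:**
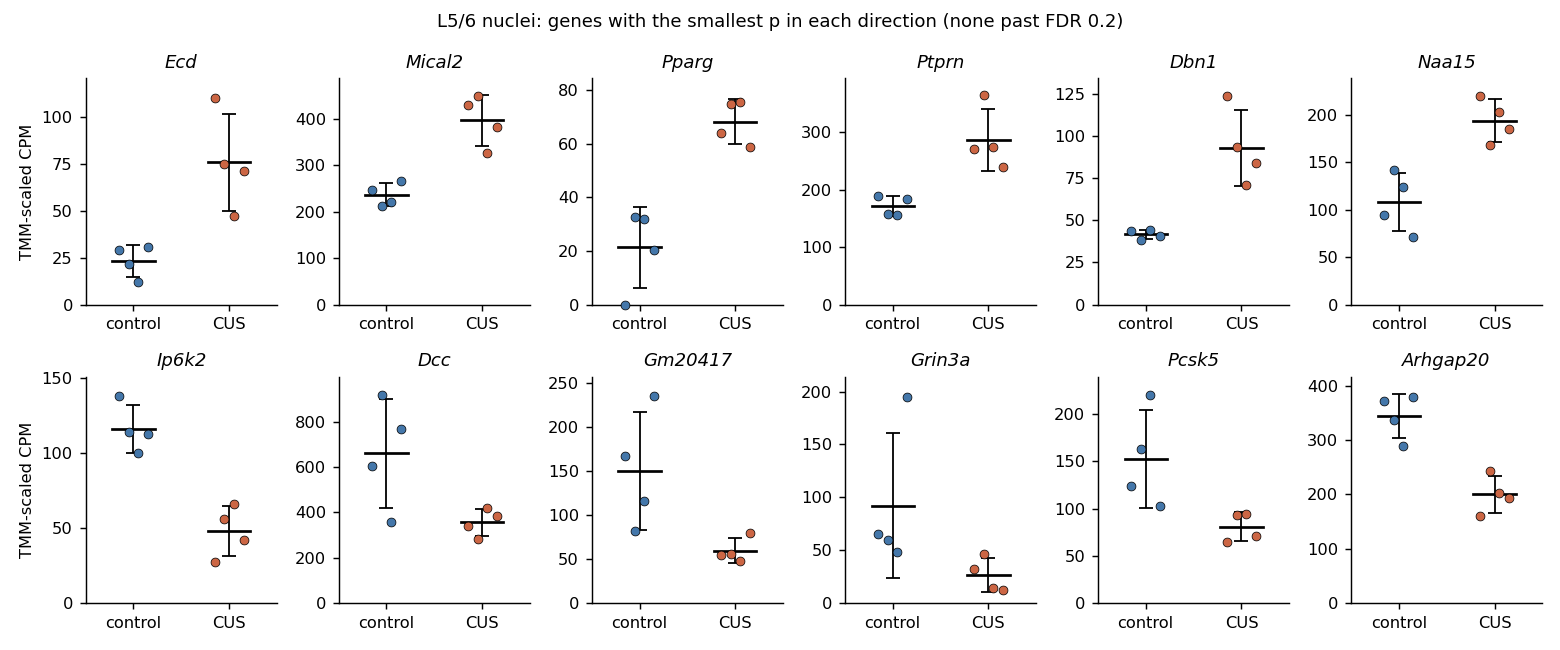
TMM-scaled CPM in L5/6 nuclei of each mouse for 6 higher (top row) and 6 lower (bottom row) genes ranked by p; points are mice, bars are means ± SD (n = 4), and each y axis starts at 0. Groups do not overlap except for Dcc, yet the lowest FDR was 0.364.

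The gene lists were counted against the 6735 tested genes, of which 5.36% had an unadjusted p under 0.05 and whose median log2 fold change was 0.000469. No listed gene was called. Of 50 activity-regulated genes, 25 could be tested. Of these, 4 had an unadjusted p under 0.05 in the higher direction and 1 in the lower, with a list median of 0.09. They included Mical2, Ier5, an immediate early gene, from 32.1 ± 9 to 61.3 ± 12.8 CPM (SD, n = 4), and Vgf, a secreted neuropeptide precursor, from 50.1 ± 11.3 to 83.5 ± 17 CPM. The other two, named after their values were seen to complete the count, were the activity-induced transcription factors Npas4 (1.01) and Junb (-1.01). Mical2 and Vgf are also among genes called before in upper-layer nuclei of these mice. The list was chosen with earlier results of these data known, so its count is not independent evidence. Fos, Fosb and Fosl2 had too few UMIs to be tested, and Egr1 stood at 127 ± 76.7 and 192 ± 24.3 CPM with overlap. Of the 22 genes of the glucocorticoid response, 11 were tested and none had an unadjusted p under 0.05. Sgk1, the kinase induced by glucocorticoids, had a log2 fold change of 0.43, the clock gene Per1 of 0.49 and the mineralocorticoid receptor Nr3c2 of -0.26.

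Lists related to the rule markers held no gene past the FDR of 0.2. Each list also holds a rule marker (Deptor, Il1rapl2 and Sulf2 in turn). These were used to choose the nuclei and are included in the counts and medians below. Of 25 genes of the mTOR pathway, in which Deptor acts, 16 were tested and none had an unadjusted p under 0.05 (median -0.06), with Sesn1, which restrains mTOR, at -0.65 and the S6 kinases Rps6kb1 and Rps6kb2 at 0.42 and 0.76. Of 20 synapse organizers around Il1rapl2, 18 were tested and none had an unadjusted p under 0.05 (median -0.06). The smallest p belonged to the presynaptic adhesion protein Nrxn2 (0.45), the receptor phosphatase Ptprs (0.37) and its ligand family member Slitrk4 (-0.45). Of 26 heparan sulfate genes, 17 were tested and 13 had estimates below 0 (median -0.12), beside 3363 of 6735 over all genes (median 0.00047), and only the syndecan Sdc2 had an unadjusted p under 0.05, at 51, 59.9, 32.1 and 71.7 CPM in control mice and 18.3, 18.7, 18.9 and 29.4 CPM in CUS mice. The sulfotransferase Hs6st3 and the glypican Gpc5 followed at -0.36 and -0.51.

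Among synaptic and receptor lists, 1 of 20 tested glutamate receptor genes had an unadjusted p under 0.05 in each direction, Grin3a lower and the kainate receptor Grik1 higher (0.74), followed by Grik5 at 0.44. Of 22 tested genes of the excitatory postsynapse, the scaffold gene Homer2 was lower (-0.86) and Dlg4, which encodes PSD-95, higher (0.64) at an unadjusted p under 0.05. Camk2a, the calcium/calmodulin kinase subunit, had 501 ± 66.6 and 652 ± 91.5 CPM (SD, n = 4). Homer1 had a log2 fold change of 0.37, Negr1 of -0.10, Adam23 of -0.29, Alcam of -0.26 and Crem of 0.07. Of 12 tested neuromodulator receptors, the adrenergic receptor Adra1b had 36.4, 27.2, 32.1 and 10.2 CPM in control mice and 59.5, 46.7, 66.1 and 71.3 CPM in CUS mice (unadjusted p = 0.00697, FDR 0.883 from edgeR), while the cannabinoid receptor Cnr1 stood at -0.57 and the muscarinic receptor Chrm3 at -0.29.

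**Figure D4:**
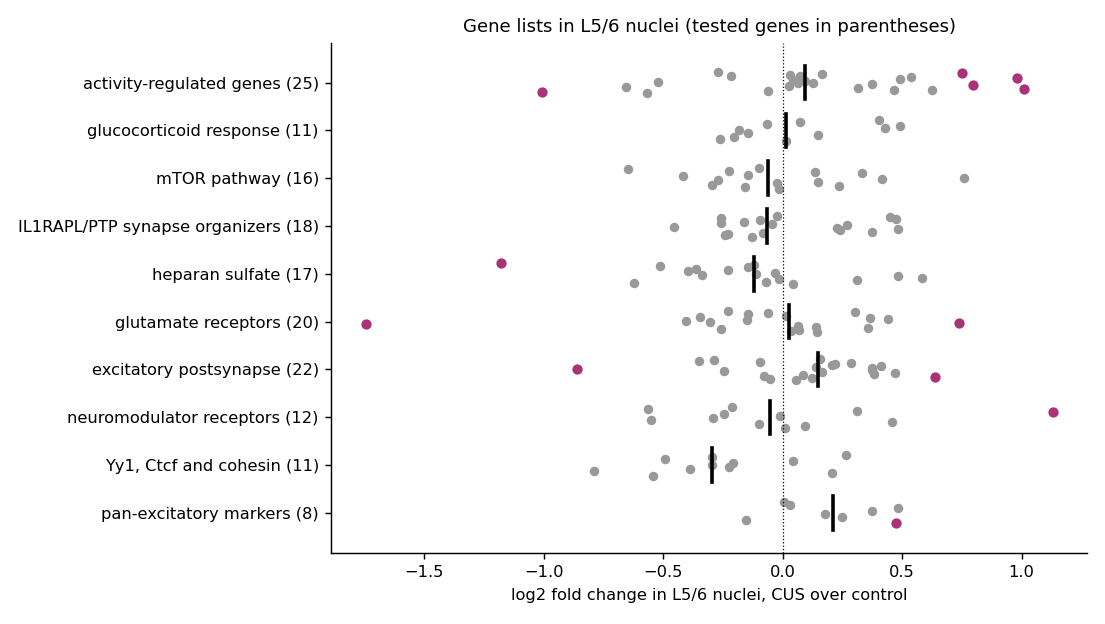
Log2 fold change (CUS over control) in L5/6 nuclei of the tested genes of the functional and pan-excitatory lists. The lists of upper-layer genes and of genes named by the study are not drawn. Black bars are list medians and purple points have an unadjusted p under 0.05. No point passed the FDR of 0.2, and the 11 genes of the Yy1, Ctcf and cohesin list have a median of -0.29 with no purple point.

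Yy1, a transcription factor that the study examined in excitatory nuclei, was low and variable in L5/6 nuclei. A Yy1 UMI was present in 18.6%, 17.3%, 28.3% and 12% of members in the control mice and in 8.93%, 9.76%, 24% and 15.2% in the CUS mice. The groups overlapped, at 19.1 ± 6.81% and 14.46 ± 6.93% (SD, n = 4 each, exact permutation p = 0.4). At 1000 UMIs per nucleus the shares were 3 ± 2.07% and 3.71 ± 3.5% (exact permutation p = 0.743, n = 4 each). In L2/3 nuclei of the same mice the shares before thinning were 21 to 24.6% in control and 12.4 to 20.6% in CUS mice. In L6 nuclei they were 16.1 to 21.8% and 10.1 to 15.5%, while in L4 and L5 PT nuclei the groups overlapped. At 1000 UMIs the groups overlapped in all these classes, and the shares in them were not tested. For comparison, 17.8% of the inhibitory nuclei (median 2529 UMIs) had a Yy1 UMI, and Yy1 is expressed in most cell types. At 1000 UMIs the shares pooled over mice were 7.02% in the inhibitory nuclei and 3.07% in members. The level of Yy1 in members was 65.6 ± 21.6 CPM in control and 49 ± 20.2 CPM in CUS mice (-0.54 ± 0.36 on the log2 scale, SE). Without 1 mouse this estimate was -0.29 (control mouse 3 or CUS mouse 1 left out) to -0.82 (CUS mouse 3 left out), and with 4 or more rule markers it was 0.20.

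The whole Yy1, Ctcf and cohesin list summed to 1406 to 1473 CPM in the control members and 1271 to 1322 CPM in the CUS members. This was 1 of many list sums and was not tested. The sums carry no TMM scaling. Control mouse 3 (1406 CPM) had a TMM factor of 1.03 and CUS mouse 2 (1274 CPM) a factor of 0.925. Scaling by these factors moves the 2 mice towards each other, and the gap between the groups does not hold on that scale. No single gene of the 11 had an unadjusted p under 0.05. Estimates were below 0 for 8, led by the cohesin subunit Rad21 at -0.79 and the cohesin release factor Wapl at -0.49, and above 0 for 3, among them Ctcf at 0.21, whereas over all genes tested 3363 of 6735 estimates were below 0.

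A list of 14 genes that had been called in upper-layer nuclei of these same mice in an earlier analysis is not independent evidence. Of these, 5 had an unadjusted p under 0.05 in L5/6 nuclei, 4 higher and 1 lower, beside 361 of 6735 genes tested (5.36%). None passed the FDR of 0.2. The higher ones were Mical2, Vgf, Sgsm1, a Rab-regulating protein (0.96), and Mir124a-1hg, the host gene of a neuronal microRNA (0.45). The lower one was Frmd3 (-0.73), at 109, 103, 124 and 81.9 CPM in control mice and 41.2, 74.7, 75.6 and 71.3 CPM in CUS mice. Egr1, Dnajc21, Vgll4, Atad2, Astn2, Dcx, Nln, Prr16 and Slit2 lay between -0.65 and 0.47.

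Whether the CUS effect differed between L5/6 nuclei and another layer of the same mice was tested with an interaction term over 16 sums, with the mouse as a block. Against L2/3 nuclei, 1 of 6287 genes passed the FDR of 0.2 (0.0159%). This was Pparg, for which the CUS effect was 1.48 in L5/6 nuclei and -0.42 in L2/3 nuclei. In L2/3 nuclei Pparg stood at 186, 196, 164 and 210 CPM in control mice and 116, 197, 120 and 140 CPM in CUS mice, each above the L5/6 levels of either group. The difference was 1.92 (standard error 0.41, FDR 0.109 from edgeR), and it lost the call without control mouse 1 (FDR 0.415), 2 (0.257) or 4 (0.356), without CUS mouse 3 (0.26), and without nuclei of a high doublet score (0.236). Next came Ankfn1 (2.07), Sgcd (0.70), Cpne4 (0.86), Rmst (1.13) and Ecd (1.57), none past the threshold.

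Against L6 nuclei, 3 of 5555 genes passed (0.054%), each with a higher CUS effect in L5/6 nuclei. Sgcd encodes a sarcoglycan, Cpne4 a calcium-dependent membrane-binding copine and Thsd7a a thrombospondin-domain protein. Sgcd stood at 306, 539, 433 and 369 CPM in control and 320, 579, 628 and 441 CPM in CUS L5/6 nuclei. In L6 nuclei of the same mice it stood at 354, 599, 324 and 370 CPM and at 192, 281, 258 and 293 CPM. The difference in log2 fold change was 0.87 (standard error 0.18, FDR 0.0426), beside 0.22 in L5/6 nuclei and -0.70 in L6 nuclei when each class was fitted alone.

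Cpne4 differed by 1.21 (standard error 0.25, FDR 0.0426). Its L5/6 levels were 124, 158, 144 and 164 CPM in control and 124, 308, 269 and 218 CPM in CUS mice, against 54.5 to 124 CPM and 37.7 to 89.2 CPM in L6 nuclei. Thsd7a differed by 1.55 (FDR 0.134), but its CUS levels in L5/6 nuclei were uneven, at 137, 112, 369 and 256 CPM, beside 81.9 to 147 CPM in control mice. All 3 lost the call without control mouse 2 (FDR 0.398, 0.398 and 0.495 for Sgcd, Cpne4 and Thsd7a) or without CUS mouse 3 (0.375, 0.315 and 0.945). Cpne4 also lost it without control mouse 3 (0.317), and Thsd7a without control mouse 1 (0.486) or 4 (0.643), without CUS mouse 4 (0.94) and in the likelihood ratio test (0.239). The next genes, Nrg1 (0.39), Dancr (-1.58) and Kctd16 (0.72), did not pass.

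**Figure D5:**
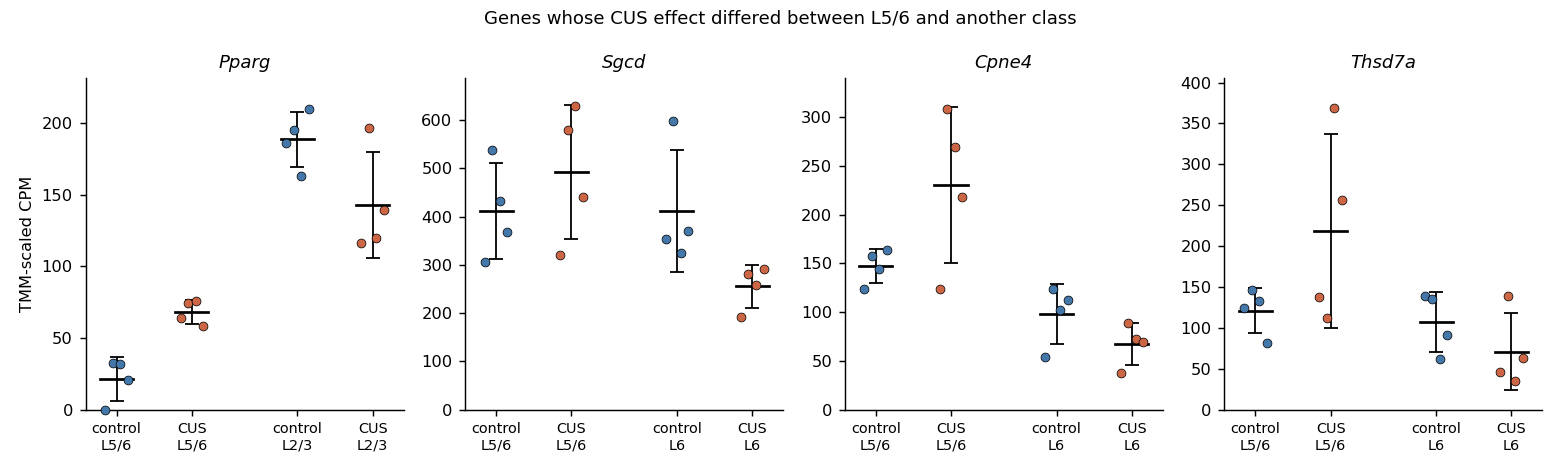
TMM-scaled CPM per mouse of Pparg in L5/6 and L2/3 nuclei and of Sgcd, Cpne4 and Thsd7a in L5/6 and L6 nuclei; points are mice, bars are means ± SD (n = 4), and each y axis starts at 0. Pparg has a higher mean in CUS than in control mice in L5/6 nuclei and a lower one in L2/3 nuclei, and the means of the other 3 genes are higher in CUS mice in L5/6 nuclei and lower in L6 nuclei.

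The rule markers were finally read in bulk mPFC RNA of other mice, which the rule did not use. In bulk tissue, fewer cells of a type and less RNA per cell cannot be told apart. At an FDR of 0.05, 606 of 18394 genes were called (3.29%) and none of the 5 rule markers was among them. Deptor and Scube1 had an unadjusted p under 0.05 in edgeR, as did 3954 of the 18394 genes. Deptor stood at 31.7 CPM in control and 39.3 CPM in CUS mice, a log2 fold change of 0.31 (FDR 0.0834 from edgeR). Scube1 went from 80.7 to 106 CPM (0.40, FDR 0.11), Sulf2 from 82.5 to 97 CPM (0.23, FDR 0.26), Il1rapl2 from 322 to 362 CPM (0.17, FDR 0.264) and Etv1 from 56.6 to 60.1 CPM (0.09, FDR 0.765). All 5 estimates were above 0, and in each case the mice of the 2 groups overlapped. Without control mouse 3, Deptor (0.00961), Sulf2 (0.0181) and Scube1 (0.00147) passed the FDR of 0.05. With all mice, Deptor passed it in the likelihood ratio test of edgeR (FDR 0.0386) and in DESeq2 (FDR 0.0404).

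Inside the L5/6 nuclei, where they were used in the choice, the same genes were part of the fit but are given here without its test. Il1rapl2 had 1349 ± 273 CPM in control and 1145 ± 192 CPM in CUS mice (SD, n = 4), Deptor 220 ± 65.1 and 211 ± 21.9, Etv1 329 ± 106 and 234 ± 37.9, Sulf2 192 ± 54.1 and 211 ± 50.6, and Scube1 227 ± 36.2 and 303 ± 81.9 CPM. The 2 groups overlapped for every one.

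The 8 leading genes, which the rule did not use, were also compared between the groups. In L5/6 nuclei their groups overlapped, and AC129186.1 had the largest difference (-0.63 on the log2 scale, FDR 0.883), at 131, 185, 200 and 236 CPM in control and 50.4, 215, 128 and 126 CPM in CUS mice. In bulk mPFC, 1 of the 8 passed the FDR of 0.05, beside 606 of 18394 genes in all (3.29%). Slc6a7, a proline transporter of excitatory terminals, rose from 55.8 to 71.9 CPM without overlap (log2 fold change 0.37, FDR 0.0359 from edgeR, n = 4 and 5). Its estimate in L5/6 nuclei was 0.48 with overlap, and its bulk call was not followed over the alternatives. Ndst3 stood at 219 and 267 CPM in bulk (FDR 0.0671), also without overlap.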

How the data were processed

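Nuclei of 8 mice were measured by sNucDrop-seq. The deposited tables hold UMI counts per gene (exons and introns, mm10, Gencode annotation) for 5000 barcodes per mouse, as the authors made them, without a quality filter. The deposited bulk tables hold raw read counts per gene, which the authors produced with STAR alignments. The members and gene lists were chosen with earlier results of these data known.

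Barcodes were filtered and chosen as described, and UMIs were summed per mouse. Genes with summed UMIs above 10% of the number of members were tested with edgeR 4.0.16 (TMM, quasi-likelihood, Benjamini-Hochberg). The study reported a strong batch effect, had equal numbers of control and CUS mice in each batch, and used a batch term. The labels do not give the batch, so no batch term was fitted here, and batch and single mice cannot be told apart. Bulk genes were kept with filterByExpr. The log2 fold change is CUS over control. The fits were tested on simulated data. Doublets were kept in the main result and scored with Scrublet (scanpy 1.11.5). Alternatives were the likelihood ratio test, DESeq2 1.42.0, other filters, no TMM, leaving out each mouse, other marker thresholds and thinning to 1000 UMIs, which leaves out 2 members. P-values measure the spread between these mice.

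Named genes were the 5 rule markers, the 6 smallest p per direction, the 3 smallest p of each of 11 lists, genes named by the study or called before in upper layers, 6 per interaction and 8 leading genes. Nuclear UMIs were counted by the authors on the strand of the annotated gene. The bulk libraries were stranded, and whether their counting used strand is not given in the sources used here, so overlapping genes may share bulk counts. Intervals and floors cover counting error only.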

Additional observations from a re-analysis of the deposited data

Results flagged for a closer look

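The share of L5/6 nuclei in CUS mouse 2, 1.19%, lay apart from the other 3 CUS mice (1.35 to 1.39%), and Grin3a in control mouse 4, at 195 CPM, lay apart from the other 3 control mice. Among 62 groups of mice looked at in this way, chance alone gives about 1 in 20.

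The CUS effect differed between layers for 4 genes by the interaction test of edgeR, each higher in L5/6 nuclei on the log2 scale. The difference from L2/3 nuclei was 1.92 for Pparg, and the difference from L6 nuclei was 0.87 for Sgcd, 1.21 for Cpne4 and 1.55 for Thsd7a.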

How the results depend on the processing

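The count of genes called in L5/6 nuclei was 0 in the main analysis, 9 with the likelihood ratio test, 1 with the strict filter (1 summed UMI per nucleus), 2 with nuclei of 2 or more rule markers, and 0 to 11 with 1 mouse left out (11 without CUS mouse 3, 1 without control mouse 3). Genes of the lists accounted for 2, 1, 1 and 0 to 1 of these. Against L2/3 nuclei the count of 1 became 3 with the likelihood ratio test, 4 without high doublet scores and 0 to 3 with 1 mouse left out. Against L6 nuclei 3 became 7 without high doublet scores and 0 to 5 with 1 mouse left out. Rule markers called in bulk went from 0 to 1 (Deptor) with the likelihood ratio test and DESeq2, and to 0 to 3 with 1 mouse left out.

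The share difference of 0.168 percentage points was 0.608 with the Slc17a7 denominator, 0.645 with 2 or more and 0.0595 with 4 or more markers, 0.36 at a minimum of 1000 genes, 0.0848 without high doublet scores (exact permutation p = 0.571), 0.0135 at 1000 UMIs and 0.141 to 0.215 with 1 mouse left out. Differences in UMIs per nucleus (-152.6) became 37.5 without high doublet scores and -332.7 to 61.8 with 1 mouse left out, and those in genes (-26) became 9.75 and -107.2 to 81.9. The Yy1 share difference of -4.6 points became 0.853 with 4 or more markers, 0.712 at 1000 UMIs and -7.78 to -1.51 with 1 mouse left out. The share of members with Slc17a7 was 21% at 1000 UMIs, an alternative chosen after seeing the data. Of single genes, Pparg reversed to -0.085 with 2 or more markers, Dcc to 0.16 without high doublet scores, Yy1 to 0.20 with 4 or more markers, and Etv1 in bulk to -0.0077 without control mouse 4 (-0.0077 to 0.226 over the mice left out). The cause was not tested in any of these cases.

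With a replicate block, 0 genes were called in L5/6 nuclei and 0 rule markers in bulk, and the bulk call of Mical2 was lost (FDR 0.0724). The bulk fit with this block also left out CUS mouse 5, which has no control of its number. Leaving out that mouse alone also lost the Mical2 call, so the part of the block in this loss was not tested. The numbers were not taken to pair the mice, since not every correlation of same-numbered deviations was over 0.1. These were 0.103, -0.017, 0.0366 and -0.0335 for nuclei and 0.0139, 0.152, 0.0561 and 0.0835 in bulk, and 1 and 3 of 4 control mice correlated best with their own number. Of 357 single-gene alternatives, 308 kept direction and call, 21 gained a call, 24 lost it and 4 reversed. Most of these genes were chosen for a small p in the same data, and most had no call to lose. The count is therefore no measure of how firm the estimates are. Depth limits single genes, as Ecd and Pparg rested on 73 and 68 UMIs.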
